A study of Mus musculus with 24 samples.

Results

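The enzymes that build triglyceride were followed in mouse liver through 10 genes, chosen by symbol from a list of named enzymes: *Gpam*, *Agpat2*, *Agpat3*, *Lpin1*, *Lpin2*, *Lpin3*, *Dgat1*, *Dgat2*, *Mogat1* and *Mogat2*. All 10 were found, each under 1 identifier, among the 56205 genes of the deposited count table. The data were RNA-Seq libraries from whole livers of C57BL/6J mice, males and females, which had been given either a high-fat diet ("FFD") or a control diet for 20 weeks. The study's methods describe the high-fat diet as rich in palm oil with added fructose and cholesterol, and the animals as young adults when it began. Each diet had 12 libraries of poly(A)-selected RNA, and the labels name no mutation and no other agent in either group. The diet is a model of fatty liver with fibrosis, and the measurement is of RNA only, not of enzyme or of lipid.

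Liver cells make triglyceride mainly by the glycerol phosphate pathway. A glycerol-3-phosphate acyltransferase (Gpam in mitochondria) adds the first fatty acid, an acylglycerol-phosphate acyltransferase (Agpat2, Agpat3) the next, a lipin removes the phosphate to leave diacylglycerol, and a diacylglycerol acyltransferase (Dgat1, Dgat2) adds the last fatty acid. In the monoacylglycerol pathway, best known from the intestine, a monoacylglycerol acyltransferase (Mogat1, Mogat2) makes diacylglycerol directly, and the same Dgat enzymes finish it.

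Depth ranged from 14468418 to 22112552 counts on genes per library. Levels are given as CPM, which are counts brought to a common library size, and library sizes were first scaled by the trimmed mean of M values (TMM). Control replicate 10 stood apart, with the lowest depth and a TMM factor of 0.679, and so did high-fat replicate 9, with the highest factor, 1.34. High-fat replicate 9 had the lowest *Gpam*, *Agpat3*, *Lpin1*, *Lpin2* and *Dgat2* of its diet. The choice of scaling mattered too: with library totals in place of TMM the median log2 fold change of all genes was 0.26 in place of -0.03, and directions that this turned are given beside the gene. The labels do not give the sex of a library, but replicates 1 to 6 of both diets held 2664 to 6285 counts of *Xist*, the transcript of the inactive X chromosome, and replicates 7 to 12 held 0 to 3. *Ddx3y*, a gene of the Y chromosome, had 0 counts in replicates 1 to 6 and 448 to 1016 in replicates 7 to 12. These 2 sets of 12 libraries, 6 per diet, above and below 1000 *Xist* counts, are called the Xist-high and Xist-low sets below, and values within each are given where they bear on a result. The hepatocyte markers were strongly expressed (summed level 38200 to 130800 CPM per library), which matches the labelled tissue. Nothing beyond the design's count of animals says that each library came from 1 mouse, so p-values measure the spread between these libraries.

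On the high-fat diet 1 of the 10 members rose and 1 fell. *Mogat2* rose 3.38-fold (log2 fold change 1.76, SE 0.36) and *Lpin1* fell 3.39-fold (-1.76, SE 0.51). *Mogat1* was 2.65-fold higher on average and *Dgat2* 1.32-fold lower, both with an adjusted p that missed the threshold. The genes of the first acylation steps, *Gpam*, *Agpat2* and *Agpat3*, had log2 fold changes between -0.21 and -0.08. All these comparisons used the quasi-likelihood test of edgeR, p-values were adjusted over 17913 genes by Benjamini-Hochberg, and a call needed an adjusted p no higher than 0.01 together with an absolute log2 fold change over 0.5. By that rule 13.2% of all genes tested were called higher and 4.99% lower, so 1 call in each direction among 10 members was close to the background. The median log2 fold change was -0.15 over the members and -0.03 over all genes tested.

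**Figure D1:**
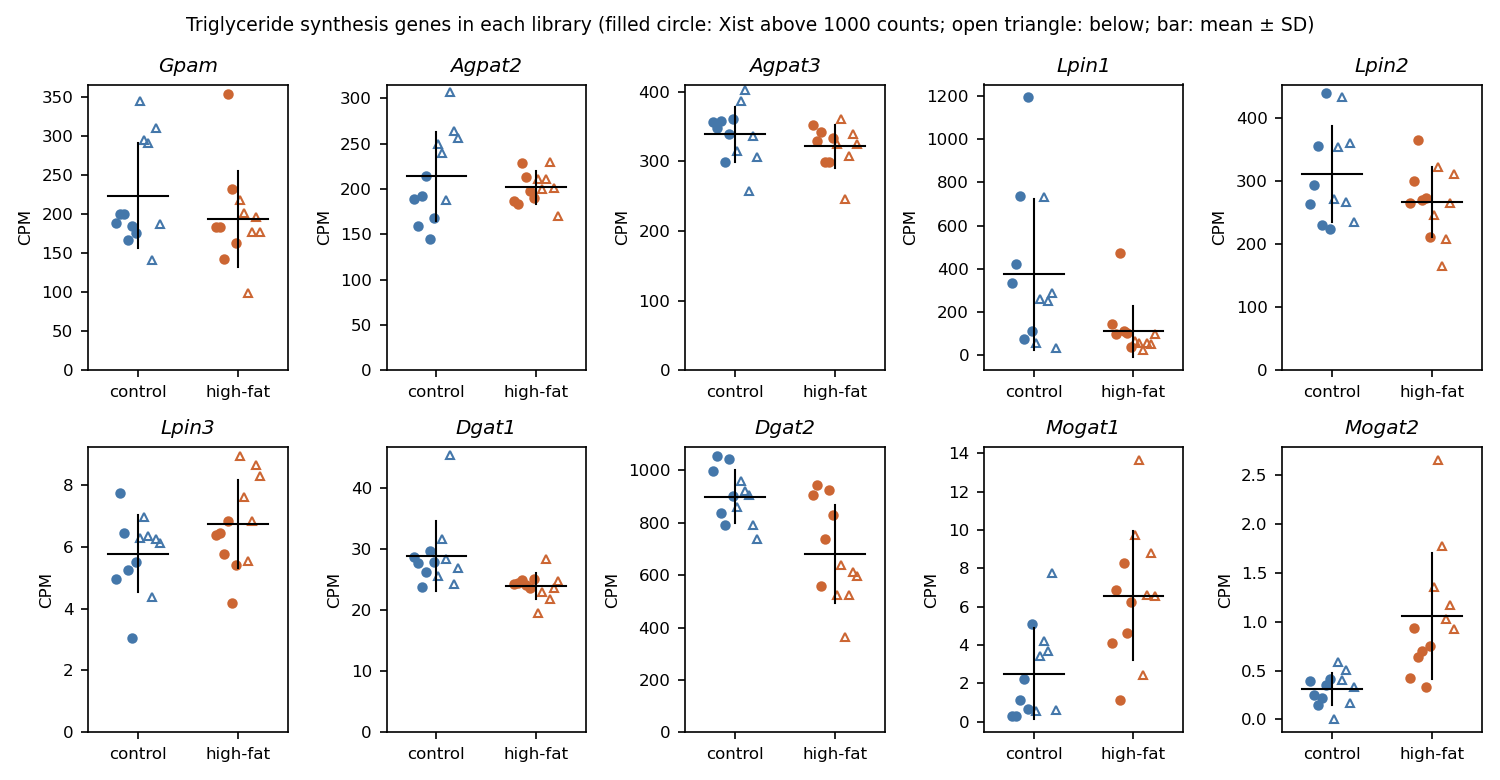
Level of each of the 10 genes (y axis, CPM) in the 12 control and the 12 high-fat libraries, with filled circles for the Xist-high and open triangles for the Xist-low set, and bars for the mean ± SD of each diet. *Lpin1* spans 34.9 to 1193 CPM in the control libraries and 23.9 to 473 CPM in the high-fat libraries, and the diets overlap for every gene.

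Per kilobase of exon, the order of the members was led by *Dgat2* on both diets. In control livers the mean level in CPM per kilobase was 292 ± 33.1 for *Dgat2* (SD, n = 12), 101 ± 23.1 for *Agpat2*, 43.5 ± 5.13 for *Agpat3*, 38.8 ± 36.2 for *Lpin1*, 33.5 ± 10.03 for *Gpam* and 25.4 ± 6.21 for *Lpin2*. *Dgat1* followed at 9.45 ± 1.86 CPM per kilobase, then *Mogat1* at 1.60 ± 1.52, *Lpin3* at 1.56 ± 0.336 and *Mogat2* at 0.171 ± 0.0902. Not every step of this order held library by library: *Lpin1* was above *Gpam* in 6 of the 12 control libraries and *Mogat1* above *Lpin3* in 6 of 12, so these neighbours did not differ beyond their spread. *Dgat2* exceeded *Agpat2*, and *Agpat2* exceeded *Agpat3*, in 12 of 12. On the high-fat diet *Lpin1* stood below *Gpam* and *Lpin2*, at 11.4 ± 12.4 CPM per kilobase against 29.0 ± 9.13 and 21.8 ± 4.51, and was above *Dgat1* (7.85 ± 0.688) in 7 of 12 libraries. *Mogat1*, at 4.22 ± 2.17 CPM per kilobase, was above *Lpin3* (1.82 ± 0.386) in 11 of the 12 high-fat libraries.

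The first step was read from *Gpam* (ENSMUSG00000024978, chr19:55067268-55127238, minus strand), which encodes the mitochondrial glycerol-3-phosphate acyltransferase. Positions of all members are those of GENCODE M21 on GRCm38, the mm10 genome. Its level ran from 98.8 through a median of 183 to 353 CPM on the high-fat diet, and from 141 through 194 to 344 CPM on the control diet. The ranges largely coincided, and the fold change of *Gpam* was -0.21 on the log2 scale (SE 0.17, adjusted p = 0.335), and 0.061 with library totals. On the control diet the Xist-low libraries averaged 261 ± 78.9 and the Xist-high ones 186 ± 13.1 CPM (n = 6 each). The log2 fold change was 0.18 in the Xist-high and -0.54 in the Xist-low set (adjusted p = 0.07 in the latter), and the difference between them, -0.73, did not pass (adjusted p = 0.127).

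*Agpat2* and *Agpat3* encode enzymes that turn lysophosphatidic acid into phosphatidic acid. *Agpat2* (ENSMUSG00000026922, chr2:26593057-26604417, minus strand) ran from 171 through 201 to 230 CPM on the high-fat diet and from 145 through 203 to 307 CPM on the control diet. Its exons share 64 bases with *Egfl7* on the opposite strand, an endothelial gene with up to 1005 counts. The high-fat libraries lay inside the control range, and the fold change of *Agpat2* was -0.08 on the log2 scale (SE 0.10, adjusted p = 0.546), and 0.23 with library totals (adjusted p = 0.0584). Of the 10 members *Agpat2* had the lowest adjusted p for a diet effect that differed between the sets: the log2 fold change was 0.18 in the Xist-high and -0.28 in the Xist-low set, a difference of -0.47 (SE 0.16, unadjusted p = 0.00622, adjusted p = 0.0571). Among all genes 4.04% were called for that difference, and none of the 10 members was. An unadjusted p under 0.05 was found for 3 members, *Agpat2*, *Gpam* and *Dgat2*, and for 4288 of all 17913 genes tested. *Agpat3* (ENSMUSG00000001211, chr10:78269178-78352489, minus strand) ran from 246 through 327 to 361 CPM on the high-fat diet and from 258 through 343 to 403 CPM on the control diet. The *Agpat3* fold change was -0.08 on the log2 scale (SE 0.08, adjusted p = 0.450), and turned to 0.20 with library totals (adjusted p = 0.0954).

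The lipins, phosphatidate phosphatases that release diacylglycerol, held the only fall among the 10 members. *Lpin1* (ENSMUSG00000020593, chr12:16535669-16610966, minus strand) also encodes a protein known to act in the nucleus as a coactivator, and its liver transcript is known to respond to fasting. *Lpin1* ran from 23.9 through 80.8 to 473 CPM on the high-fat diet (566 to 8883 counts) and from 34.9 through 275 to 1193 CPM on the control diet (531 to 20326 counts). Only high-fat replicate 3, at 473 CPM, lay above the control median, while 3 control libraries (replicates 3, 5 and 9) lay above all the high-fat libraries. Control replicates 4, 7 and 12 were low, at 74.6, 58.8 and 34.9 CPM. The fall was -1.76 on the log2 scale (SE 0.51, adjusted p = 0.00795), from a mean of 375 ± 350 to 111 ± 119 CPM (SD, n = 12). In whole liver, fewer cells of a type and less RNA per cell cannot be told apart. The call was close to its threshold and lost in 15 of the 24 fits that left out 1 library, in which the adjusted p ranged from 0.000478 (without high-fat replicate 3, log2 fold change -2.27) to 0.0218 (without control replicate 5, -1.44); without high-fat replicate 9 it was -1.66 (adjusted p = 0.0134). The call was also lost with library totals (-1.55, adjusted p = 0.0132) and with limma-voom (-1.53, adjusted p = 0.0178). It was kept with the Xist set as a covariate (-1.88, adjusted p = 0.00218) and with DESeq2 (-1.75, adjusted p = 0.00233).

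The fall had the same direction in both sets. In the Xist-high set *Lpin1* averaged 479 ± 424 CPM on the control and 162 ± 156 CPM on the high-fat diet (log2 fold change -1.56, adjusted p = 0.109, n = 6 per diet). In the Xist-low set it averaged 271 ± 252 and 59.2 ± 24.5 CPM (-2.17, adjusted p = 0.0082). The difference between the sets was -0.63 (SE 0.90, adjusted p = 0.728), so the missed threshold in the Xist-high set does not show a smaller fall there. The libraries of 1 diet differed in *Lpin1* more than in nearly any other gene. The SD of log2(CPM + 1) was 1.57 over the control and 1.07 over the high-fat libraries, and only 90 and 138 of 11173 genes with a mean of at least 50 counts had a larger one.

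*Lpin2* (ENSMUSG00000024052, chr17:71182560-71249817, plus strand) ran from 165 through 267 to 365 CPM on the high-fat diet and from 224 through 282 to 439 CPM on the control diet. The fold change of *Lpin2* was -0.22 on the log2 scale (SE 0.13, adjusted p = 0.187), and 0.054 with library totals. *Lpin3* (ENSMUSG00000027412, chr2:160880670-160906002, plus strand) was scarce, from 4.18 through 6.63 to 8.93 CPM on the high-fat diet and from 3.05 through 6.17 to 7.73 CPM on the control diet (43 to 187 counts in a library). The *Lpin3* fold change was 0.22 (SE 0.13, adjusted p = 0.188) and 0.51 with library totals (adjusted p = 0.0102), and both diets overlapped widely.

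**Figure D2:**
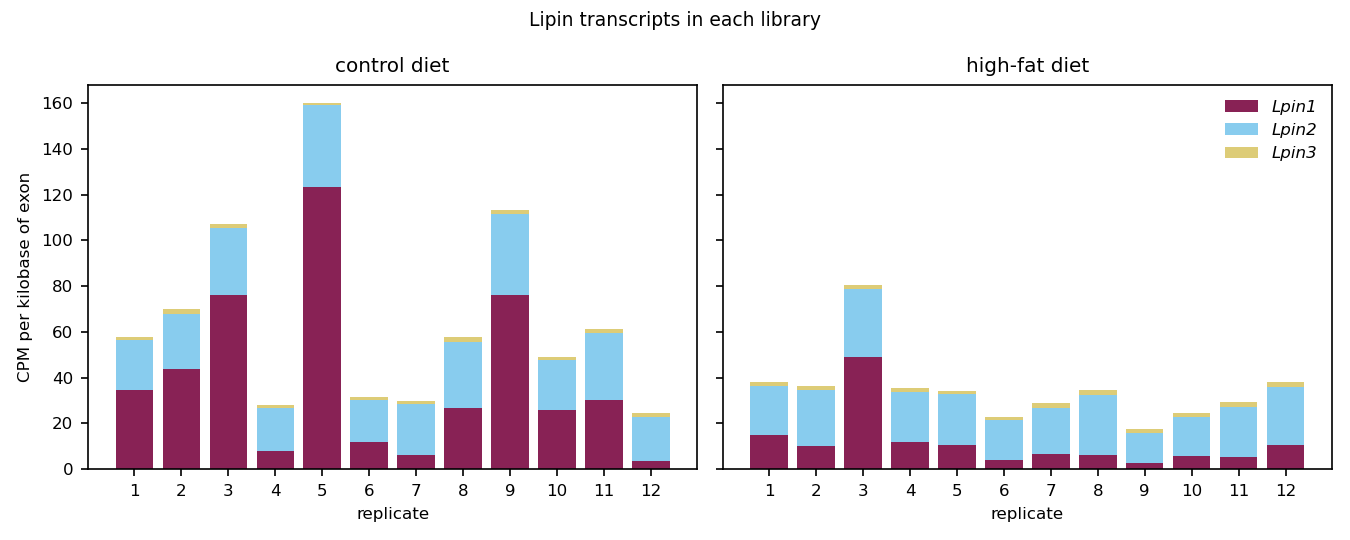
Stacked level of the 3 lipin genes (y axis, CPM per kilobase of exon) in each of the 12 control and 12 high-fat libraries (x axis, replicate number). The *Lpin1* segment is the one that varies most, between 14.8% and 77.1% of the bar in control and between 14.2% and 60.9% in high-fat libraries.

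With *Lpin1* lower and *Lpin2* and *Lpin3* not called, the make-up of lipin transcripts differed between the diets. Per kilobase, *Lpin1* made up 48.9% ± 20.3 of the 3 lipins in control livers and 27.8% ± 12.7 in high-fat livers (SD, n = 12). For the 4 ratios tested the threshold was an adjusted p of at most 0.05, against 0.01 for single genes. The difference of -21.1 percentage points passed a two-sided permutation test by that threshold (p = 0.00718, 0.0144 adjusted over the 4 ratios). It was -21.0 points in the Xist-high and -21.1 points in the Xist-low set, and passed in neither (adjusted p = 0.143 and 0.0952, exact permutation tests of 6 against 6 libraries).

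*Lpin1* and *Lpin2* went up and down together from library to library. After the mean of each diet within each set was subtracted from log2(CPM + 1), Pearson's r was 0.85 over the 24 libraries and Spearman's rho 0.82 (two-sided permutation p = 1e-05 for both, the smallest that 100000 resamples give, and 0.00045 adjusted over the 45 pairs of members). With control replicates 3 and 5 left out, the 2 libraries most distant from the *Lpin1* median, r was 0.81, and without control replicate 10 it was 0.89. Within the 4 groups of 6 libraries r lay between 0.82 and 0.94. No other pair passed 0.05 after adjustment with both coefficients. *Agpat2* and *Dgat2* came nearest, in opposite directions (r = -0.52, adjusted p = 0.0576, and rho = -0.64, adjusted p = 0.0416, by the same permutation test).

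**Figure D3:**
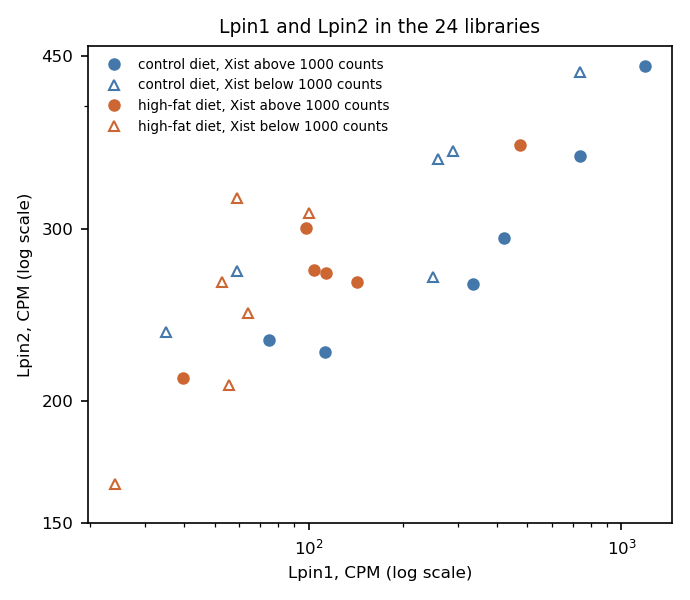
Level of *Lpin2* (y axis, CPM, log scale) against *Lpin1* (x axis, CPM, log scale) in the 24 libraries, by diet (colour) and set (filled circle or open triangle). The libraries rise together from high-fat replicate 9, at 23.9 and 165 CPM, to control replicate 5, at 1193 and 439 CPM.

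Because these lipin genes varied together, the 250 bases before the start sites that RefSeq lists for them on GRCm38.p6 are shown, read 5′ to 3′ on the strand of the gene. *Lpin1* has 1 listed start in the table, and the window is chr12:16610967-16611216 on the minus strand. *Lpin2* has 3, and the first is shown, at chr17:71183282-71183531 on the plus strand, which falls in an intron of a longer GENCODE transcript of the gene. Capitals mark AGGTCA, the half-site of nuclear receptors, in *Lpin1* and CACGTG, an E-box, in *Lpin2*.
Lpin1: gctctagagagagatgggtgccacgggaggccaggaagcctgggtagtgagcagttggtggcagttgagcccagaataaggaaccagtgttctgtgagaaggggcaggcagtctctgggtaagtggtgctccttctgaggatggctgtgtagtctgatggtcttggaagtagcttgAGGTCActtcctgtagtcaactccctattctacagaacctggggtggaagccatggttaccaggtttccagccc
Lpin2: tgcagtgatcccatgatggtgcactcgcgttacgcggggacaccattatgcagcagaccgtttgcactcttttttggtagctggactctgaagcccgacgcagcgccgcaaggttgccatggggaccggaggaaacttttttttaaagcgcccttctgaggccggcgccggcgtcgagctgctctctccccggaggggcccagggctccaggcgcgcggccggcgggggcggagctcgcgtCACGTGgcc
The half-site begins at position -74 from the start of *Lpin1* and the E-box at -9 from that of *Lpin2*. Searched on both strands, AGGTCA was present in 14.02% and CACGTG in 6.02% of the 32851 windows of the same length in the table, and TGACGTCA, the cAMP response element, in 1.55% and in neither of these windows. The windows share no motif of the 3 searched, and a match describes the letters only. The other listed windows of *Lpin2* held none of the 3 motifs. A window of *Gpam*, whose r with *Lpin1* was 0.16, also held AGGTCA, at -196. Of the 10 members, 7 had an entry in the table; *Dgat1*, *Dgat2* and *Mogat2* had none.

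The last step is shared by *Dgat1* and *Dgat2*, which carry out the same reaction with proteins of different families. *Dgat2* (ENSMUSG00000030747, chr7:99153658-99182719, minus strand), the member with the highest level, ran from 364 through 625 to 944 CPM on the high-fat diet and from 736 through 904 to 1055 CPM on the control diet. Of the high-fat libraries 7 lay below the lowest control library and 4 control libraries lay above the highest high-fat one. The fold change, -0.40 on the log2 scale (SE 0.13, adjusted p = 0.0134), missed the thresholds. It was -0.34 without high-fat replicate 9 (adjusted p = 0.0178) and -0.14 with library totals (adjusted p = 0.340). In other fits the adjusted p passed and only the fold missed. These were the Xist set as a covariate (-0.43, adjusted p = 0.00212), DESeq2 (-0.39, adjusted p = 0.00526) and limma-voom (-0.44, adjusted p = 0.00698). The low libraries belonged mostly to the Xist-low set, where *Dgat2* averaged 543 ± 99.7 CPM on the high-fat and 862 ± 85.0 CPM on the control diet (n = 6 each) and fell by 0.65 on the log2 scale (adjusted p = 0.00197). In the Xist-high set the averages were 817 ± 147 and 937 ± 111 CPM (log2 fold change -0.19, adjusted p = 0.374). The difference between the sets, -0.47, was not past the threshold (SE 0.19, adjusted p = 0.125).

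*Dgat1* (ENSMUSG00000022555, chr15:76502015-76511953, minus strand) ran from 19.6 through 24.2 to 28.5 CPM on the high-fat diet and from 23.8 through 27.9 to 45.5 CPM on the control diet. The highest value was that of control replicate 10, the library that stood apart. The fold change was -0.27 on the log2 scale (SE 0.08, adjusted p = 0.0131) and -0.19 without that library (adjusted p = 0.00894), under the fold threshold either way. With library totals *Dgat1* was at 0.0466. The log2 ratio of *Dgat2* to *Dgat1* was 4.76 ± 0.444 in high-fat and 4.96 ± 0.241 in control livers, a difference of -0.20 that did not pass the two-sided permutation test (p = 0.196, 0.262 adjusted over the 4 ratios). Leaving out 1 library moved this difference between -0.26 (without control replicate 10) and -0.0975 (without high-fat replicate 9).

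**Figure D4:**
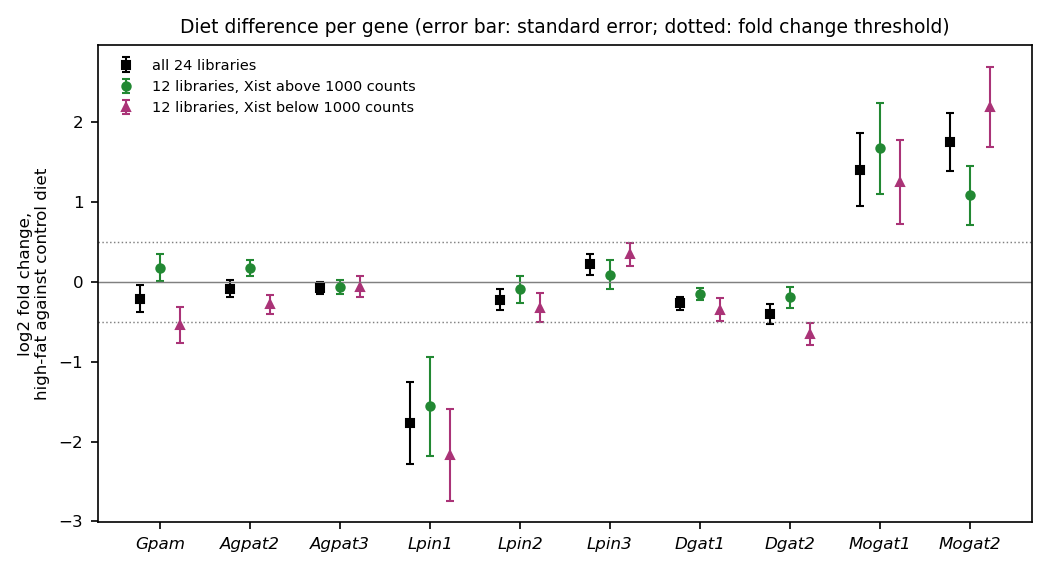
Log2 fold change of each gene, high-fat against control diet (y axis), with standard errors as bars, over all 24 libraries (squares) and within the Xist-high (circles) and Xist-low (triangles) sets of 12; dotted lines mark 0.5 and -0.5. *Lpin1* lies between -2.17 and -1.56, *Mogat1* between 1.26 and 1.67 and *Mogat2* between 1.09 and 2.19 in the 3 fits, while *Gpam* and *Agpat2* lie on opposite sides of 0 in the 2 sets.

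The monoacylglycerol acyltransferases held the only rise among the 10 members. *Mogat2* (ENSMUSG00000052396, chr7:99219084-99238619, minus strand), the main form in the intestine, was near the limit of detection in control livers, from 0 through 0.341 to 0.589 CPM (0 to 10 counts), and ran from 0.335 through 0.932 to 2.66 CPM on the high-fat diet (6 to 49 counts). The library at 0 was control replicate 7, where 3 counts would be 0.162 CPM, so a level up to that could have been missed; this limit covers counting error only. Of the high-fat libraries 10 lay above all 12 control libraries, and high-fat replicates 1 and 5 lay within their range. Complete separation of the diets, which 1.89% of all genes showed, was seen for no member. The rise was 1.76 on the log2 scale (SE 0.36, adjusted p = 0.000416), from 0.314 ± 0.166 to 1.06 ± 0.642 CPM, and stayed between 1.55 and 1.88 with each library left out (1.66 without high-fat replicate 9). It was 1.09 in the Xist-high (adjusted p = 0.0618) and 2.19 in the Xist-low set (adjusted p = 0.0034), and the difference of 1.09 between them was not past the threshold (SE 0.63, adjusted p = 0.302).

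*Mogat1* (ENSMUSG00000012187, chr1:78510991-78538173, plus strand), the form studied most in fatty liver, ran from 1.12 through 6.57 to 13.7 CPM on the high-fat diet (21 to 252 counts) and from 0.295 through 1.70 to 7.76 CPM on the control diet (6 to 137 counts). Of the high-fat libraries 11 were above the control median and 4 above the highest control library, which was replicate 11; the low exception was high-fat replicate 3, also the library with the highest *Lpin1* on that diet. The fold change of 1.41 on the log2 scale (SE 0.46) had an adjusted p of 0.0162 and was not called. It passed without control replicate 11 (1.72, adjusted p = 0.00355), without high-fat replicate 3 (1.51, adjusted p = 0.00808), with the Xist set as a covariate (1.44, adjusted p = 0.00804), with library totals (1.69, adjusted p = 0.00456) and with limma-voom (1.94, adjusted p = 0.0036). The libraries of a diet differed widely, with an SD of log2(CPM + 1) of 0.971 on the control and 0.757 on the high-fat diet, above 98.1% and 97.0% of the 11173 genes. Exons of *Mogat1* and *Mogat2* overlap those of a gene on the opposite strand by 200 and 55 bases, and no library held more than 1 and 4 counts of these genes.

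The log2 ratio of the monoacylglycerol acyltransferases (*Mogat1* and *Mogat2* summed per kilobase) to the glycerol-3-phosphate acyltransferases (*Gpam*, *Gpat2*, *Gpat3* and *Gpat4* summed) was -5.74 ± 1.27 in control and -3.89 ± 0.816 in high-fat livers. The ratio was thus 1.84 higher on the log2 scale on the high-fat diet (two-sided permutation p = 0.00053, 0.00212 adjusted over the 4 ratios). Most of its upper sum was *Mogat1*, which alone was not called. Its mean was 1.60 CPM per kilobase in control and 4.22 in high-fat livers, against 0.171 and 0.576 for *Mogat2*. By exact permutation tests of 6 against 6 libraries, the difference was 1.60 in the Xist-high set and did not pass (adjusted p = 0.104). It passed in the Xist-low set (2.09, adjusted p = 0.0173). Control libraries lay between -7.75 and -3.93 and high-fat libraries between -5.85 and -2.65, and the entry by glycerol phosphate remained the far more abundant transcript in each of them. With 0.5 in place of 0.1 added to each sum before the logarithm, the difference between the diets was 1.51 (two-sided permutation p = 0.00047). The log2 ratio of *Mogat1* to *Mogat2* was 2.72 ± 0.948 on the high-fat and 2.36 ± 1.504 on the control diet, a difference of 0.36 that did not pass (two-sided permutation p = 0.481). This difference was unstable in size, at 0.137 without control replicate 1, 0.184 without control replicate 2, 0.232 without control replicate 5, 0.229 without control replicate 12, 0.608 without control replicate 11 and 0.547 without high-fat replicate 9, at 0.624 with a pseudocount of 0.5 CPM, and at -0.46 within the Xist-low set.

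Markers of other cells moved with the diet in the same libraries. By the rule used for the members, 13.2% of all genes tested were called higher and 4.99% lower. Summed macrophage markers ran from 378 to 1152 CPM on the high-fat and from 129 to 569 CPM on the control diet (6 of 8 rose), those of stellate cells and fibroblasts from 364 to 841 and from 158 to 429 CPM (5 of 8 rose), and those of cholangiocytes from 31.6 to 881 and from 27.3 to 131 CPM (4 of 5 rose). The 881 CPM is that of high-fat replicate 9, and the next highest library had 514 CPM. Of 7 hepatocyte markers tested, 5 fell, and their sum ran from 38200 to 93420 CPM on the high-fat and from 82440 to 130800 CPM on the control diet. These 5 falls were called with TMM scaling. With library totals in its place, 1.26% of all genes tested were called lower. Markers of sinusoidal endothelial cells summed to 156 to 312 CPM on the high-fat and 128 to 283 CPM on the control diet (1 of 5 rose), and those of T cells to 1.62 to 4.74 and 0.815 to 4.94 CPM (0 of 4 called). The part of these markers in the differences of *Lpin1* and *Mogat2* was not tested. Adipocytes and enterocytes, in which several of these enzymes are abundant, were looked for by their defining markers. *Lep* was at 0 in all 24 libraries. *Adipoq* was at 0 in 11 of 12 high-fat and 8 of 12 control libraries and *Plin1* in 11 and 9, with at most 6 counts where either was seen; the list summed to 15.7 to 256 CPM on the high-fat and 2.704 to 79.6 CPM on the control diet, nearly all of it *Cidec* and *Cfd*. *Cidec*, a lipid-droplet gene that fatty liver also expresses, rose (log2 fold change 2.93, adjusted p = 0.000205). The enterocyte genes *Alpi* and *Sis* were at 0 in all 24 libraries, while the list summed to 1021 to 4681 and 941 to 3354 CPM, almost all from *Apoa4* and *Fabp2*; 0 of the 3 tested were called.

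**Figure D5:**
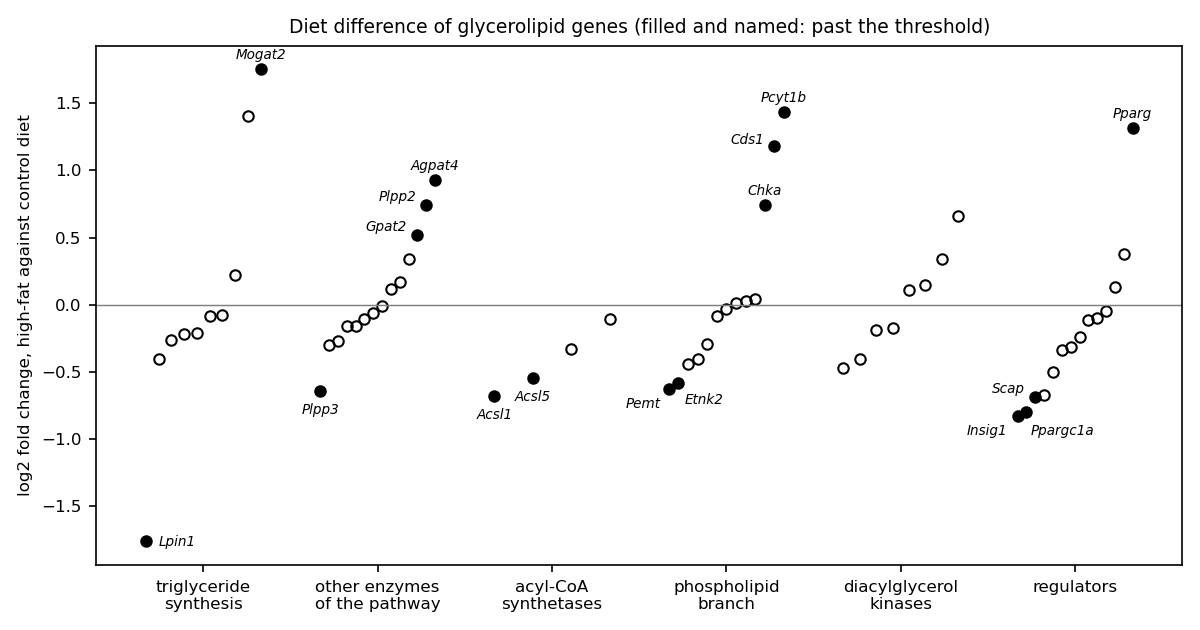
Log2 fold change, high-fat against control diet (y axis), of every gene tested in the 10 members and in 5 further lists of glycerolipid genes (x axis, genes in order of fold change within each list); filled and named points passed the threshold. *Lpin1* at -1.76 and *Mogat2* at 1.76 are the outermost points, and the acyl-CoA synthetases all lie below 0.

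Further enzymes of triglyceride synthesis were followed in a list of 15 genes, of which 14 were tested, 3 rose and 1 fell (18.2% of all genes tested were called in either direction). *Agpat4*, another acylglycerol-phosphate acyltransferase, rose from 1.35 ± 0.559 to 2.58 ± 1.22 CPM (log2 fold change 0.93, adjusted p = 0.00448). *Gpat2*, a glycerol-3-phosphate acyltransferase best known from testis, rose from 3.65 ± 1.31 to 5.25 ± 0.787 CPM (0.52, adjusted p = 0.00859). The 2 other calls were lipid phosphate phosphatases, which can remove the same phosphate as the lipins: *Plpp2* rose from 23.8 ± 5.47 to 39.9 ± 7.96 CPM (0.74, adjusted p = 4.5e-05), and *Plpp3*, the more abundant, fell from 204 ± 38.3 to 130 ± 35.3 CPM (-0.64, adjusted p = 0.000971). *Gpd1*, which supplies glycerol 3-phosphate, averaged 334 ± 78.6 CPM on the control and 320 ± 54.6 CPM on the high-fat diet, and *Gpat4*, the main microsomal glycerol-3-phosphate acyltransferase of liver, 220 ± 58.4 and 198 ± 33.5 CPM. Neither was called, and the median of the list was -0.04. *Plpp3* was not called with library totals (-0.39, adjusted p = 0.0293), and 0 of the list were called within the Xist-high set. Within that set 3.8% of all genes tested were called, so 0 of the list was close to the background.

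The acyl-CoA synthetases, which activate the fatty acids that all these steps use, had 4 of 5 genes tested, 0 that rose and 2 that fell. Their median was -0.44, and of all genes tested 13.2% were called higher and 4.99% lower. *Acsl1*, the main long-chain form in liver, fell from 940 ± 196 to 586 ± 121 CPM (log2 fold change -0.68, adjusted p = 0.000147). *Acsl5* fell from 454 ± 67.7 to 312 ± 83.7 CPM (-0.54, adjusted p = 0.0012). Neither was called with library totals, where *Acsl1* was at -0.41 (adjusted p = 0.00618) and *Acsl5* at -0.26 (adjusted p = 0.0574), nor within the Xist-high set (-0.31 and -0.37, adjusted p = 0.0677 and 0.196). Of all genes tested, 1.26% were called lower with library totals and 0.896% within the Xist-high set.

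Among the genes of the phospholipid branch, which draws on the same diacylglycerol and phosphatidic acid, 13 of 13 were tested, 3 rose and 2 fell, with a median of -0.03. Over all genes tested 13.2% were called higher and 4.99% lower. *Chka*, choline kinase alpha, rose from 18.4 ± 3.48 to 30.7 ± 5.01 CPM (log2 fold change 0.74, adjusted p = 9.4e-06). *Cds1*, which makes CDP-diacylglycerol from phosphatidic acid, and *Pcyt1b*, a form of the enzyme that makes CDP-choline, rose from levels under 1 CPM (1.18 and 1.43, adjusted p = 0.00582 and 0.00883). *Pemt*, which methylates phosphatidylethanolamine to phosphatidylcholine, fell by 0.63 on the log2 scale (adjusted p = 0.00328), and *Etnk2*, an ethanolamine kinase, fell by 0.58 (adjusted p = 0.00285). With library totals *Pemt* and *Etnk2* were not called (-0.32 and -0.30, adjusted p = 0.0325 and 0.0411), and within the Xist-high set only *Chka* was. In that set 3.8% of all genes tested were called in either direction. Of 8 diacylglycerol kinases tested of 10, 0 were called by edgeR and 0 by DESeq2. 2 had an unadjusted p under 0.05, as had 8568 of all 17913 genes tested. *Dgkq* (-0.48 on the log2 scale, adjusted p = 0.00236) and *Dgkz* (0.34, adjusted p = 0.00712) passed the threshold on the adjusted p and missed only the one on the fold. The median was -0.03.

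Of 14 transcriptional regulators and sensors of lipid synthesis, all tested, 1 rose and 3 fell (13.2% of all genes tested were called higher and 4.99% lower). *Pparg*, the nuclear receptor that drives fat storage genes, rose from 7.94 ± 3.59 to 19.8 ± 5.72 CPM (log2 fold change 1.31, SE 0.21, adjusted p = 3.18e-05). *Ppargc1a*, a coactivator of the fasting response, fell by 0.80 on the log2 scale (adjusted p = 0.00888), and both *Scap*, which escorts SREBP proteins for their activation, and *Insig1*, which holds them back, fell, by 0.69 and 0.83 (adjusted p = 7.8e-05 and 0.00591). None of these 3 falls was called with library totals, where *Ppargc1a* was at -0.57, *Scap* at -0.41 and *Insig1* at -0.58 (adjusted p = 0.052, 0.00583 and 0.0341), or within the Xist-high set. With library totals 1.26% of all genes tested were called lower, and within the Xist-high set 0.896%. *Srebf1*, which encodes SREBP1, averaged 451 ± 154 CPM on the control and 586 ± 190 CPM on the high-fat diet (0.38, adjusted p = 0.115), and was called with library totals (0.64, adjusted p = 0.00662). *Mlxipl*, which encodes the carbohydrate-responsive factor ChREBP, was not called (-0.24 on the log2 scale, adjusted p = 0.109). Over the regulators the median was -0.28.

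For each member the genes whose pattern was most like it were sought among 11164 genes with a mean of at least 50 counts, by Pearson's r over the 24 libraries after the means of diet and set were subtracted. These r describe libraries that share their depth and scaling, and no test was made on them. *Lpin1* was most like *Arhgef26* (r = 0.95) and *D230025D16Rik* (0.90), and *Lpin2* like *Klf9* and *St3gal5* (0.88 each). *Gpam* was most like *Lactb2* and *Xpot* (0.91 each), *Dgat1* like *Zfp524* (0.92) and *Cyhr1* (0.90), and *Dgat2* like *Slc1a2* (0.87) and *Hgfac* (0.86). *Mogat1* was most like *Gstm4* (0.90) and *Lgals1* (0.89), whereas for *Mogat2*, with its few counts, the highest were *Rnf41* at 0.61 and *Pex10* at 0.60. *Agpat3* was nearest to *C2cd2l* (0.88) and *Tpp1* (0.87), *Agpat2* to *Gm3608* (0.80) and *Tmed9* (0.78), and *Lpin3* to *Rfx7* and *Sec22c* (0.76 each).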

How the data were processed

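Whole-liver poly(A) RNA was sequenced in 24 libraries, grouped by the diet given in the labels. The deposited table holds the authors' raw counts of reads for each Ensembl gene. The submitters' processing notes name bcl2fastq, STAR 2.7.3a and mm10; the counting program, its annotation and its use of strand are not given in the sources used here. Symbols were found for 51745 IDs, and the 4460 without one held 0.0723% of counts. Genes seen with 1 count or more in no fewer than 12 libraries were tested with edgeR 4.0.16 in R 4.3.3 (TMM, quasi-likelihood, diet as the only term), with the study's thresholds. In simulated data the diet test recovered 77% of 200 genes changed by 1 on the log2 scale, drawn from genes with a mean of at least 10 counts. For this test the simulation held no difference between the sets and took its spread from within them, so recovery in the real libraries may be lower. The test of a difference between the sets recovered 27%, so a true difference of that size can be missed. The log2 ratios of *Dgat2* to *Dgat1* and of *Mogat1* to *Mogat2* added 0.1 to each CPM before division by length. The monoacylglycerol ratio added 0.1 to each summed CPM per kilobase, and the *Lpin1* share had nothing added. Permutation tests that were not exact used 100000 resamples.

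All members, every called gene of the other lists and the 2 genes most like each member were named. The members, the lists and the split by *Xist* were chosen with earlier results of these data known. The hepatocyte marker *Tf* was not found by symbol. Between any pair of libraries on 1 diet, chi-square divided by its degrees of freedom was 10.1 or more, so none was a duplicate. Alternatives were DESeq2 1.42.0, limma-voom 3.58.1, other scalings, filters and thresholds, a replicate block, the sets of libraries and each library left out.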

Additional observations from a re-analysis of the deposited data

How the results depend on the processing

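Of 367 alternative values of the members' fold changes, 330 kept their direction and their side of the threshold, 20 lost and 10 gained the threshold, and 7 reversed. The cause was not tested unless stated. The count of members that rose (1) was 2 at an adjusted p of at most 0.05 with no fold threshold, with library totals, limma-voom, the replicate block or the set of libraries as a covariate. It was 0 with filterByExpr, which removed *Mogat2*, with at least 10 counts in every library, which removed *Mogat1* and *Mogat2*, and within the Xist-high set. The count that fell (1) was 3 at an adjusted p of at most 0.05, 0 with library totals, limma-voom, the replicate block or within the Xist-high set, and 2 within the Xist-low set. Of all genes, 20.7% were called higher and 18.9% lower at an adjusted p of at most 0.05 with no fold threshold. With library totals these shares were 21.4% and 1.26%, with limma-voom 13% and 4.9%, and with the block 11.5% and 4.71%. They were 13.5% and 5.92% with the set as a covariate, 2.91% and 0.896% in the Xist-high and 14.3% and 7.89% in the Xist-low set. The share higher was 14.4% with filterByExpr and 10.8% with at least 10 counts in every library. *Lpin1* was -1.55 with library totals (adjusted p = 0.0132), -1.53 with limma-voom (0.0178) and -1.54 with the replicate block (0.0175). *Mogat1* passed with library totals (1.69, adjusted p = 0.00456), limma-voom (1.94, 0.0036) and the block (1.74, 0.00715).

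With library totals the median over all genes was 0.26 in place of -0.03, and the calls were 3827 higher and 226 lower (94.4% higher against 72.6%). They reversed *Agpat2* (0.23), *Agpat3* (0.20), *Dgat1* (0.0466), *Gpam* (0.061) and *Lpin2* (0.054), so 2 members instead of 7 were below 0. *Agpat2* and *Gpam* also reversed within the Xist-high set (0.18 each), and the log2 ratio of *Mogat1* to *Mogat2* within the Xist-low set (-0.46). The *Lpin1* share missed the threshold within the Xist-high (-21.0 points, adjusted p = 0.143) and Xist-low set (-21.1, adjusted p = 0.0952), and the monoacylglycerol ratio within the Xist-high set (1.60, adjusted p = 0.104), by exact permutation tests of 6 against 6 libraries.

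Calls among other enzymes (4) were 0 at a log2 fold change over 1, 2 with the block and 0 in the Xist-high set. Calls of acyl-CoA synthetases (2) were 0 at a log2 fold change over 1, 0 with library totals, 1 with at least 10 counts and 0 in the Xist-high set. The phospholipid branch (5) gave 8 at an adjusted p of 0.05, 2 at a log2 fold change over 1, 3 with library totals, 3 with at least 10 counts and 1 in the Xist-high set. Diacylglycerol kinases (0) gave 2 at an adjusted p of 0.05, 1 with library totals and 1 in the Xist-low set. Regulators (4) gave 7 at an adjusted p of 0.05, 1 at a log2 fold change over 1, 2 with library totals and 1 in the Xist-high set. Over all genes (2372 higher, 894 lower), an adjusted p of 0.05 gave 3709 and 3388, a log2 fold change over 1 gave 216 lower, at least 10 counts gave 1226 higher, the Xist-high set 525 and 162, and the Xist-low set 1430 lower. In either direction the share of all genes was 39.6% at an adjusted p of 0.05 and 10.6% at a log2 fold change over 1. It was 22.6% with library totals, 16.2% with the block or at least 10 counts, 3.8% in the Xist-high and 22.2% in the Xist-low set.

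With each library left out, members that rose numbered 1 to 2 and that fell 0 to 1, other enzymes 3 to 4, acyl-CoA synthetases 1 to 2, the phospholipid branch 3 to 5, kinases 0 to 1 and regulators 2 to 4. Of all genes, 2137 to 2464 were called higher and 745 to 995 lower in these fits. *Lpin1* lost its call without any one of high-fat replicates 2 and 4 to 12 or control replicates 1, 2, 3, 5 and 9 (15 libraries). The *Lpin1* share ran from -24.2 to -18.5 points and the monoacylglycerol ratio from 1.66 to 2.02.

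The labels number replicates 1 to 12 in both diets, but the numbers were not taken as pairs: same-numbered libraries correlated in their deviations by -0.096 to 0.578, over 0.1 in 11 of 12 numbers, and only 2 high-fat libraries correlated best with their own number. The replicate block gave 2063 genes higher and 844 lower. *Mogat2* rests on 49 counts or fewer in a library.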
